A study of Homo sapiens with 6 samples.

Results

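The arms of miR-223, miR-142 and miR-150 were examined in K562 cells with and without over-expression of RUNX1. These are the 6 mature microRNAs hsa-miR-223-3p, hsa-miR-223-5p, hsa-miR-142-5p, hsa-miR-142-3p, hsa-miR-150-5p and hsa-miR-150-3p, written without the species prefix from here on. They were taken by name from 2596 microRNA entries, 20 of them predicted, among 28846 small RNA entries. K562 is a human erythroleukemia cell line that can be driven towards erythroid or megakaryocytic cells. The cells received the lentiviral vector SIEW RUNX1, which carries human RUNX1 and GFP, or the empty vector SIEW with GFP alone as control, so both groups were transduced and carry GFP. Each group had 3 samples from independent transductions of this single cell line, and total RNA was taken after 10 days of culture. The small RNA was sequenced from 1000 ng of total RNA to ask which microRNAs respond to RUNX1 in these cells.

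A microRNA gene is transcribed as a long precursor, and the hairpin cut from it yields a duplex whose strands are named 5p and 3p after the arm of the hairpin. One strand is usually loaded into Argonaute and kept while its partner is degraded, so the counts of both arms reflect transcription as well as strand choice and stability. The seed, bases 2 to 8 of the loaded strand, pairs with target mRNAs. MiR-223 is known as a microRNA of granulocytes and their precursors, miR-142 is found across blood cells of nearly all lineages, and miR-150 is a microRNA of mature lymphocytes.

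Upon RUNX1 over-expression both arms of miR-142 rose, by 3.22-fold for miR-142-5p and 4.46-fold for miR-142-3p. The arms of miR-223 moved apart, with miR-223-3p 1.88-fold higher and miR-223-5p 1.70-fold lower than in control samples after normalization. The rise of miR-223-3p depended on how the libraries were scaled, while the shift of miR-223 towards its 3p arm needed no scaling between libraries. The other fold changes also moved in size with the scaling, but kept their direction. MiR-150 was near the detection limit in both groups.

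The mature sequences of the miR-223 and miR-142 arms are shown because the seed differs between the arms of a hairpin, so that a shift between arms is a shift between seeds. RefSeq sequences on GRCh38.p14 matched 4 of the 6 arms by name. They are written 5′ to 3′ with the seed in capitals.
hsa-miR-223-5p: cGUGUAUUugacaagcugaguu
hsa-miR-223-3p: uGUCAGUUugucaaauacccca
hsa-miR-142-5p: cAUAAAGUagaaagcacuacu
hsa-miR-142-3p: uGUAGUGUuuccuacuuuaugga
The 4 arms have 4 distinct seeds and are 21 to 23 bases long. Both 3p arms start with U and both 5p arms with C. Each of these mature sequences is annotated at 1 locus. The seed of miR-142-5p was shared by miR-5590-3p, which had 0 counts in each of the 6 samples, and no other microRNA in the RefSeq table had the seed of 1 of these arms.

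The hairpins are shown with both arms in capitals, since the comparison of the arms below rests on them.
MIR223 hairpin: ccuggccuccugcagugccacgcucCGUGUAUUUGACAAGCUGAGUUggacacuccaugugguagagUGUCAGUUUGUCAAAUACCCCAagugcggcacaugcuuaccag
MIR142 hairpin: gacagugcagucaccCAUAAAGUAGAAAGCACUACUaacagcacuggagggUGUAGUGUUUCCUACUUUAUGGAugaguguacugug
In the 110 bases of the MIR223 hairpin the arms are 20 bases apart, and in the 87 bases of the MIR142 hairpin they are 15 bases apart. In GENCODE release 29, on GRCh38, MIR223 lies at chrX:66018870-66018979 on the plus strand, within an exon of the non-coding gene AL034397.3 on the same strand. MIR142 lies at chr17:58331232-58331318 on the minus strand, within an exon of the non-coding gene AC004687.1 on the same strand, and opposite to TSPOAP1-AS1 outside of its exons. MIR150 lies at chr19:49500785-49500868 on the minus strand, and no other annotated gene contains it. The submitters' processing notes name hg19 as the build of the deposited files, and these GRCh38 positions were not converted.

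The 6 libraries held 1618248 to 15245007 counts, and microRNAs took 81.4% to 91.9% of them. Some predicted microRNA entries had the same mean level and fold change as a known arm, such as miR-146b-3p, miR-15a-5p and miR-378a-3p. Reads of such arms may thus be counted more than once in the microRNA totals, and this was not corrected. The shallowest library was control replicate 1 and the deepest RUNX1 replicate 1. A floor of 3 counts corresponded to 2.14e-05% to 0.000226% of the microRNA counts of a library. The erythroid-linked markers miR-451a, miR-144-5p and miR-486-5p, and miR-92a-3p of the proliferation-linked miR-17/92 cluster, had at least 1672 counts in every sample. MiR-124-3p of neurons had 0 counts throughout, miR-122-5p of liver at most 13, miR-9-5p at most 2 and miR-208b-3p at most 3, whereas the epithelial miR-200c-3p had 26 to 351. RUNX1 mRNA is not part of a small RNA count, so the over-expression itself was not checked here. RUNX1 replicate 3 stood apart from the other RUNX1 samples: of 335 altered microRNAs, this sample lay nearest to the control mean in 226 (67.5%), and in all 4 of the miR-142 and miR-223 arms. In the same library the erythroid miR-486-5p had 678 CPM, against 293 and 342 CPM in the other RUNX1 samples and 686 to 805 CPM in control, and its part in the results below was not tested. Values without this library are therefore given. The library names give RUNX1 replicates 1 and 2 the same number, whereas the sample titles number them separately, and both were kept as samples. Their counts were closer to each other (chi-square over its degrees of freedom 56.3) than to replicate 3 (451 and 314), and such counts cannot tell separate cultures from repeat libraries of 1 culture.

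MiR-142-5p was an abundant microRNA in control K562 cells. It took 1.98%, 1.78% and 1.71% of the microRNA counts in control replicates 1, 2 and 3, and ranked from 12 to 14 among all microRNAs. By its mean share it stood between miR-30e-5p, at 1.84% ± 0.163, and miR-17-5p, at 1.75% ± 0.0323 (SD, n = 3), and it differed from both neighbours by less than the spread between replicates. MiR-142-3p, with 0.238% ± 0.00739, and miR-223-3p, with 0.205% ± 0.0117 (SD, n = 3), ranked 41 and 45 by their mean share in control. MiR-30b-5p, with 0.241% ± 0.00983, stood next above miR-142-3p, and miR-130b-5p, with 0.211% ± 0.0123, and miR-17-3p, with 0.203% ± 0.012, enclosed miR-223-3p (SD, n = 3), all within the spread between replicates. MiR-1307-5p, next below miR-142-3p with 0.215% ± 0.00561 (SD, n = 3), differed from it by more than that spread. MiR-223-5p, with 0.077% ± 0.00494, ranked 70, between miR-185-5p with 0.0789% ± 0.00348 and miR-335-3p with 0.0766% ± 0.00695 (SD, n = 3), and did not differ from either beyond the spread. The order of the members in control was thus miR-142-5p, miR-142-3p, miR-223-3p, miR-223-5p and then the arms of miR-150. These shares are read counts that were not divided by the length of the mature arm.

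**Figure D1:**
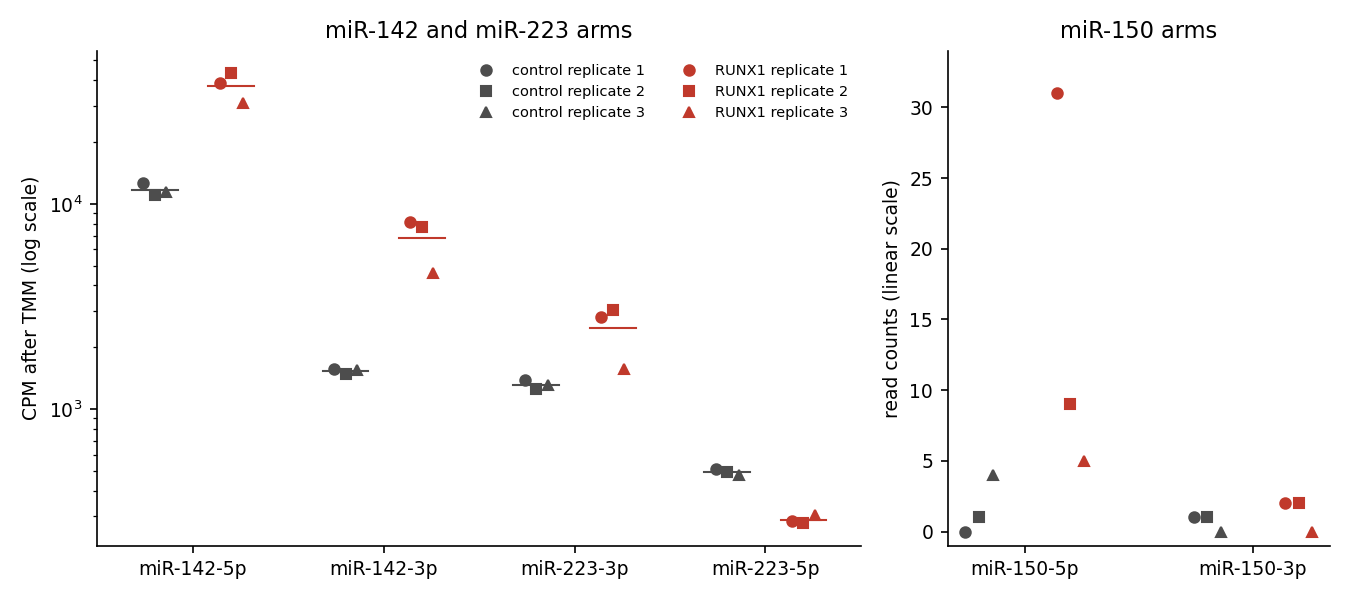
Left, TMM-normalized counts relative to library size (CPM, log axis) of the miR-142 and miR-223 arms in each sample, with a line at the mean of each group of 3; right, read counts of the miR-150 arms on a linear axis. The RUNX1 samples lie above the control samples for miR-142-5p, miR-142-3p and miR-223-3p and below them for miR-223-5p, and the highest miR-150-5p count is 31, in RUNX1 replicate 1.

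Counts were compared between groups as CPM, the usual counts-per-million unit, with the library size scaled by the TMM method, and tested with edgeR's quasi-likelihood test over 947 small RNAs that passed a filter on low counts. Altered small RNAs are those whose P-value was under 0.05 and whose log2 fold change was 0.5 or more in size. By this rule 545 of the 947 small RNAs (57.6%) were altered, 28% upward and 29.6% downward, as were 335 of 598 microRNAs (56.0%), with 33.4% of those tested up-regulated and 22.6% down-regulated. Of the 6 arms, 4 passed the filter on low counts and all 4 were altered, 3 upward and 1 downward. Since most of the microRNAs tested were altered, the call alone does not set these arms apart. The balance of directions over all microRNAs turned with the scaling of the libraries, with 200 up-regulated and 135 down-regulated under TMM, 162 and 177 with TMM on microRNAs, and 91 and 292 with library size only. In bulk samples like these, a change in the number of cells that make a microRNA and a change per cell cannot be told apart.

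MiR-142-5p, the more abundant arm of its hairpin, had 12588, 11084 and 11457 CPM in control against 38836, 43245 and 30954 CPM upon RUNX1 over-expression. All RUNX1 samples lay above all control samples, with the lowest RUNX1 value in replicate 3. On the log2 scale miR-142-5p rose by 1.69 (standard error, SE, 0.147, edgeR quasi-likelihood test, Benjamini-Hochberg adjusted p = 1.74e-05). MiR-142-3p had 1559, 1484 and 1544 CPM in control against 8160, 7727 and 4585 CPM upon RUNX1 over-expression, again without overlap and with replicate 3 nearest to control. It rose by 2.16 on the log2 scale (SE 0.210, edgeR, Benjamini-Hochberg adjusted p = 3.19e-05). Without RUNX1 replicate 3 the log2 fold changes were 1.89 for miR-142-5p and 2.46 for miR-142-3p. The CPM values of the groups did not overlap in 61.7% of the microRNAs and 64.8% of all small RNAs tested.

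As a share of microRNA counts, which uses no normalization factor, miR-142-5p went from 1.83% ± 0.140 in control to 3.23% ± 0.245 in RUNX1 samples and miR-142-3p from 0.238% ± 0.00739 to 0.579% ± 0.120 (SD, n = 3 each). By their mean share miR-142-5p moved from rank 13 to rank 8 and miR-142-3p from rank 41 to rank 25. Together the miR-142 arms took 2.07% ± 0.147 of the microRNA counts in control against 3.80% ± 0.339 with RUNX1 (SD, n = 3 each; exact permutation test, two-sided, p = 0.1, the smallest p possible with 3 samples per group). The shares did not overlap for any of these measures, which was also so for 73.4% of the microRNAs tested. The share of every microRNA moves with that of abundant ones, and miR-10a-5p took 7.74% of the microRNA counts in control, where it ranked 3, against 30.2% upon RUNX1 over-expression, where it ranked first. With its counts left out of the total, the share of miR-142-5p was 2.34 times and that of miR-142-3p 3.23 times that in control, against 1.77 and 2.43 times with it.

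MiR-223-3p, the more abundant arm of its hairpin, had 1383, 1254 and 1305 CPM in control against 2800, 3046 and 1574 CPM upon RUNX1 over-expression. The groups did not overlap, but RUNX1 replicate 3 was much closer to the control samples than to the other RUNX1 samples. MiR-223-3p thus rose by 0.91 on the log2 scale (SE 0.223, edgeR quasi-likelihood test, Benjamini-Hochberg adjusted p = 0.00638), and 1.24 without RUNX1 replicate 3. As a share of microRNA counts miR-223-3p did not differ beyond the spread between samples, with 0.218%, 0.202% and 0.195% in control against 0.231%, 0.245% and 0.152% upon RUNX1 over-expression. These shares overlapped (exact permutation test, two-sided, p = 0.9, difference 0.00441 percentage points), and RUNX1 replicate 3 had the lowest share of all 6 samples. With library size as the only scaling the log2 fold change was 0.19 (SE 0.188), and miR-223-3p was not called altered.

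MiR-223-5p, the less abundant arm, went the other way. It had 511, 492 and 478 CPM in control against 286, 278 and 305 CPM upon RUNX1 over-expression, so that the groups did not overlap and the spread within each was small. The resulting log2 fold change was -0.77 (SE 0.119, edgeR quasi-likelihood test, Benjamini-Hochberg adjusted p = 0.000497). Its share of microRNA counts was 0.077% ± 0.00494 in control against 0.0252% ± 0.00381 with RUNX1 (SD, n = 3 each; exact permutation test, two-sided, p = 0.1, the smallest possible), and by its mean share it went from rank 70 to rank 106. The summed share of both miR-223 arms was 0.282% ± 0.0161 in control against 0.235% ± 0.0462 with RUNX1 (SD, n = 3 each), with overlapping samples (exact permutation test, two-sided, p = 0.2).

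The balance of the arms was then compared within each sample, where both arms come from the same library and no scaling between libraries enters. The 3p arm made up 73.0%, 71.8% and 73.2% of the miR-223 counts in control against 90.7%, 91.6% and 83.8% upon RUNX1 over-expression. On the log2 scale the ratio of 3p to 5p counts was 1.44, 1.35 and 1.45 in control against 3.29, 3.45 and 2.37 with RUNX1, without overlap. In a test of the arm ratio over the 144 hairpins with both arms tested, 69 (47.9%) had an altered ratio, 21.5% towards 3p and 26.4% towards 5p. The ratio of miR-223 changed by 1.63 on the log2 scale, or 3.09-fold (SE 0.260, edgeR with each sample as a block, Benjamini-Hochberg adjusted p = 0.000746 over the hairpins), and by 1.96 without RUNX1 replicate 3. By size this change ranked 17 of 144, and the median size of the change over these hairpins was 0.61. The exact permutation test on the ratio gave p = 0.1, the smallest possible.

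In miR-142 the 5p arm stayed the major arm. The 3p arm held 11.0%, 11.8% and 11.9% of the miR-142 counts in control against 17.4%, 15.2% and 12.9% upon RUNX1 over-expression. The groups did not overlap, as in 54.9% of the 144 hairpins, but RUNX1 replicate 3 lay close to the control samples. The log2 ratio of 3p to 5p changed by 0.44 (SE 0.155, same edgeR test over hairpins, Benjamini-Hochberg adjusted p = 0.0419). This was short of the size of 0.5 needed for a call, and it ranged from 0.32 to 0.57 as single samples were left out. Without RUNX1 replicate 3 the change of 0.57 met the rule for a call (edgeR, Benjamini-Hochberg adjusted p = 4.07e-05). The change of the log2 ratio was larger in miR-223 than in miR-142 by 1.19 (exact permutation test on the within-sample difference, two-sided, p = 0.1, the smallest possible with 3 samples against 3). Both arms of miR-142 thus rose, whereas the arms of miR-223 moved apart under TMM scaling.

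**Figure D2:**
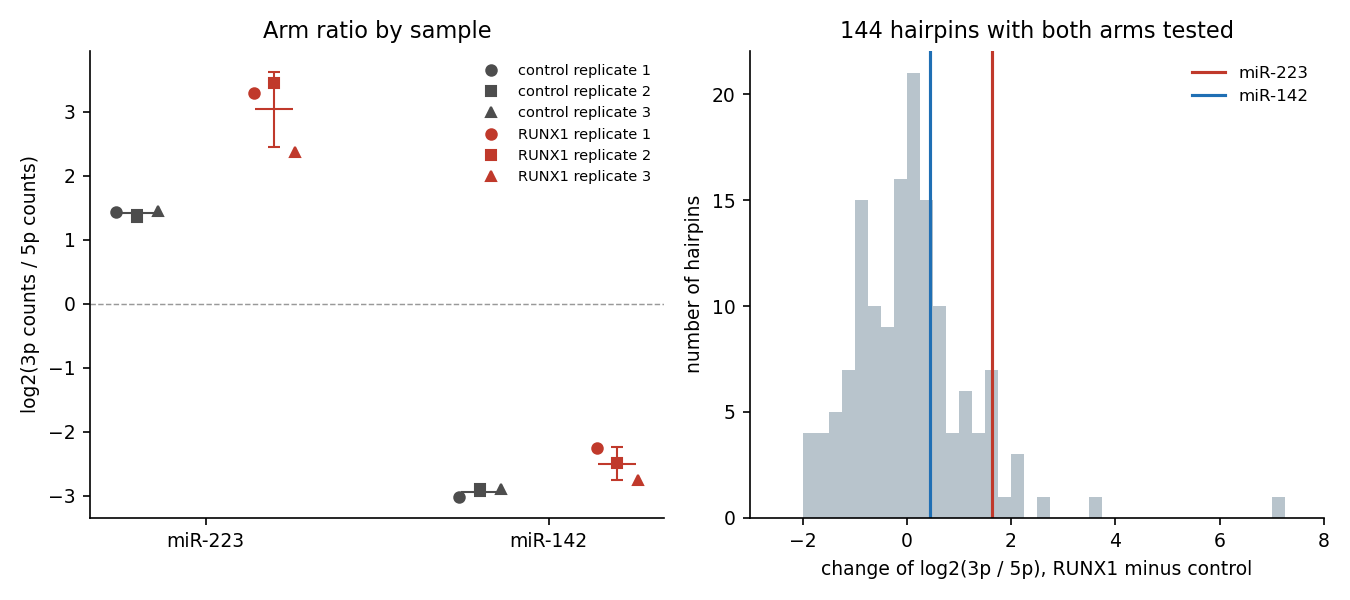
Left, log2 ratio of 3p to 5p counts of miR-223 and miR-142 in each sample, with the mean and SD of each group of 3 and a dashed line at equal counts; right, histogram of the change of this ratio (RUNX1 minus control) over 144 hairpins. In miR-223 the lowest RUNX1 sample lies at 2.37 and the highest control sample at 1.45, and its change of 1.63 lies in the right part of the histogram, while that of miR-142, 0.44, lies near its middle.

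Among the 144 hairpins, both arms were altered in the same direction in 45 (31.2%), and both were up-regulated in 33 (22.9%), miR-142 among them. Both arms were altered in opposite directions in 8 hairpins (5.56%), and miR-223 was 1 of the 5 (3.47%) with the 3p arm up-regulated and the 5p arm down-regulated. These calls use TMM scaling. With library size as the only scaling, 4 hairpins had arms altered in opposite directions, and miR-223 was not among them, since miR-223-3p was not altered. With TMM on microRNAs there were 12 such hairpins, 9 of them with the 3p arm up-regulated, and miR-223 was among them.

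**Figure D3:**
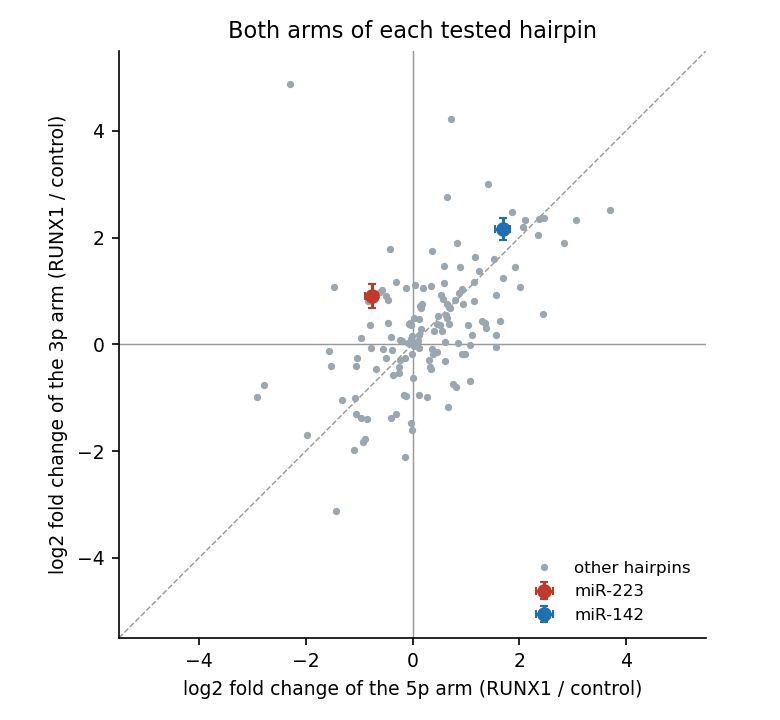
Log2 fold change (RUNX1 against control) of the 5p arm on the horizontal and of the 3p arm on the vertical axis for 144 hairpins, with standard errors for miR-223 and miR-142 and a dashed line of equal change. MiR-142 lies in the upper right, with 1.69 and 2.16, and miR-223 in the upper left, with -0.77 and 0.91.

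MiR-150 was at the limit of detection. For miR-150-5p, the main arm in lymphocytes, 0, 1 and 4 counts were found in the control libraries against 31, 9 and 5 in the RUNX1 libraries, and neither arm passed the filter on low counts. By CPM after TMM the groups did not overlap, with 0 to 0.527 against 0.729 to 2.69. As CPM of the microRNA counts alone this was 0.787 in control replicate 3, with a 95% Clopper-Pearson interval from 0.214 to 2.02, and 0.706 in RUNX1 replicate 3, with an interval from 0.229 to 1.65, so these samples overlapped (exact permutation test over all 6 samples, two-sided, p = 0.2). The 0 counts of control replicate 1, the shallowest library, have an upper limit of 2.78 on this scale by the same interval, which is above the 2.21 measured in RUNX1 replicate 1. Summed over samples, miR-150-5p was 3.56 times as frequent among microRNA counts in RUNX1 as in control samples, with an interval from 1.42 to 11.5 that covers counting error only. Without RUNX1 replicate 1, which gave 31 of the 45 RUNX1 counts, the ratio was 2.15 with an interval from 0.733 to 7.64, and without control replicate 3 it was 9.88 on 1 control count, with an interval from 1.68 to 399. The edgeR fit over all 3084 entries with at least 1 count, of which 24.7% were altered, put the change at 2.62 on the log2 scale (SE 0.658, edgeR, Benjamini-Hochberg adjusted p = 0.000573), and 3.99 without control replicate 3. DESeq2 without a filter gave 2.73 with a standard error of 1.09. MiR-150-3p counts were 1, 1 and 0 in the control and 2, 2 and 0 in the RUNX1 libraries, none above the floor of 3, and a change was not detectable at this depth.

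The scaling of the libraries shifted all arms together. TMM gave the control libraries a mean factor of 1.28 and the RUNX1 libraries one of 0.786, and the median log2 fold change of the microRNAs tested was 0.11 with TMM and -0.59 with library size only. Relative to that median, miR-142-5p lay 1.56 to 1.58 higher, miR-142-3p 2.03 to 2.06 higher and miR-223-3p 0.78 to 0.82 higher on the log2 scale over TMM, RLE, TMM on microRNAs, DESeq2 and library size. MiR-223-5p lay between -0.88 and -0.87 against the median over the same scalings. The direction of miR-142-5p, miR-142-3p and miR-223-5p and their calls were the same under each of these scalings, but the sizes moved. With library size only, the log2 fold changes were 0.97 for miR-142-5p, 1.43 for miR-142-3p and -1.47 for miR-223-5p. Of the tested arms only miR-223-3p lost its call, under library size.

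**Figure D4:**
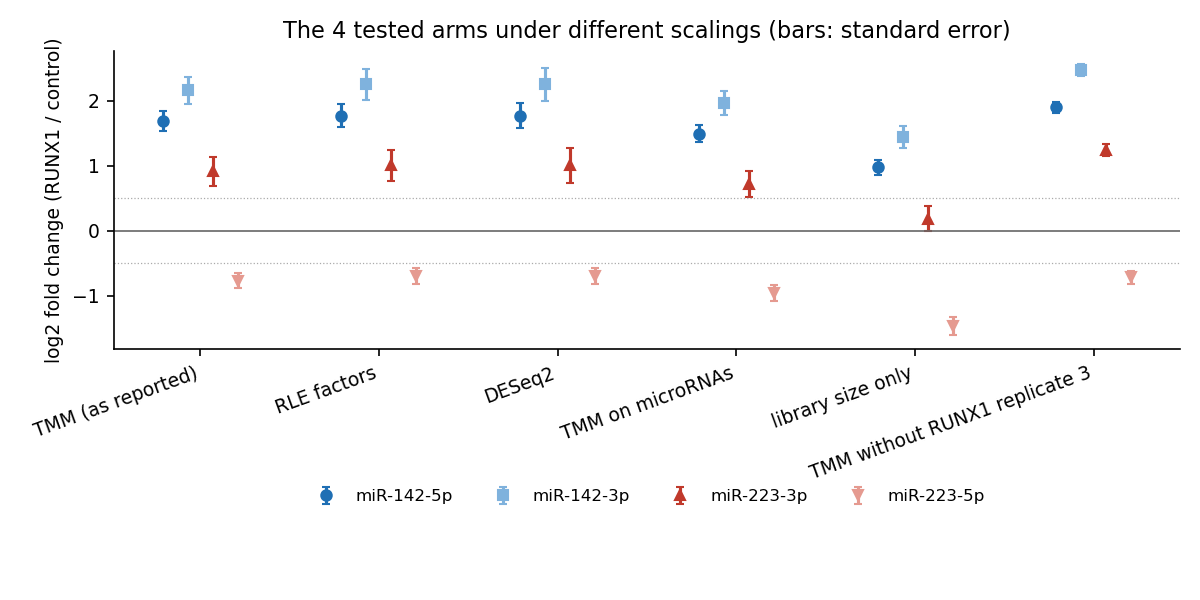
Log2 fold change (RUNX1 against control) of the tested miR-142 and miR-223 arms, with standard errors, under 5 scalings of the libraries and without RUNX1 replicate 3; dotted lines mark the size of 0.5 used for calls. The arms keep their order in every setting, and miR-223-3p lies between the dotted lines under library size only, at 0.19.

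The microRNAs with the most similar pattern were found by the root mean square difference of log2 CPM over the 6 samples, each centred on its own mean, among 597 other microRNAs. For miR-142-5p the nearest were miR-301a-3p (difference 0.0711), miR-135b-5p (0.0728) and miR-542-3p (0.106). MiR-142-3p was nearest to miR-10a-3p (0.135), the minor arm of the hairpin whose 5p arm was the most abundant microRNA in the RUNX1 samples, then to miR-340-3p (0.140) and miR-328-3p (0.142). MiR-223-3p was nearest to miR-3687 (0.107), miR-32-5p (0.108) and miR-128-3p (0.114), and miR-223-5p to miR-629-5p (0.0664), miR-576-5p (0.0716) and miR-548ax (0.0848). For none of the 4 arms was the other arm of the same hairpin among the nearest 3. These are descriptions over 6 samples in groups that differ.

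Other microRNAs linked to blood lineages were counted beside the members, as a description with no test of a list. Over all 598 microRNAs tested, 33.4% were up-regulated and 22.6% down-regulated, so that 56.0% were altered. Of 8 tested microRNAs linked to myeloid cells 6 were up-regulated and 1 down-regulated, or 87.5% altered. Their median log2 fold change was 0.91 against 0.11 for all microRNAs tested. After TMM, miR-27a-3p, miR-424-5p and miR-328-3p were among those that rose, with log2 fold changes of 0.90, 0.61 and 1.97. MiR-126-3p, which is also made in endothelial cells, fell by 1.32 on the log2 scale. As a share of microRNA counts miR-328-3p was 2.17 times and miR-126-3p 0.233 times that in control. By the same measure miR-27a-3p was 1.02 times and miR-424-5p 0.834 times that in control, so their rise was not seen in the shares. Of 10 tested lymphoid-linked microRNAs 5 were up-regulated and 0 down-regulated (median 0.35). The altered share of this list, 50%, was thus near the 56.0% of all microRNAs tested. Among these, miR-146a-5p rose by 4.20 (SE 0.167), miR-29a-3p by 2.33 (SE 0.147) and miR-181b-5p by 1.85 (SE 0.193) on the log2 scale. MiR-155-5p, a microRNA of activated lymphocytes, rose by 0.95 (SE 0.336) from no more than 10 counts per control library. As a share of microRNA counts miR-155-5p was 1.09 times that in control, with no difference beyond the spread (exact permutation test, two-sided, p = 0.8). MiR-17-5p, miR-18a-5p, miR-20a-5p, miR-19b-3p and miR-92a-3p, of the proliferation-linked miR-17/92 cluster, were not altered after TMM, with log2 fold changes from -0.43 to -0.13, while miR-19a-3p of that cluster rose by 0.83. As shares of microRNA counts the same not altered entries were 0.417 to 0.510 times those in control. Their shares did not overlap between groups, as in 73.4% of the microRNAs tested. The share of miR-19a-3p was 0.986 times that in control (exact permutation test, two-sided, p = 0.9).

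The 9 tested erythroid-linked microRNAs split into 4 up-regulated, 3 down-regulated and 2 not altered (median 0.37). The 9 tested megakaryocyte-linked ones split into 7 up-regulated and 2 down-regulated, miR-99a-5p and miR-126-3p (median 0.95). With TMM the altered share was 77.8% in the erythroid and 100% in the megakaryocyte list, against 56.0% of all microRNAs tested. The 3 that fell among the erythroid ones were miR-451a, miR-144-5p and miR-486-5p, by 0.84, 0.58 and 0.80 on the log2 scale. Their shares of microRNA counts were 0.313, 0.380 and 0.329 times those in control. The 4 that rose after TMM were miR-210-3p, miR-144-3p, miR-22-3p and miR-185-5p, by 1.24, 1.02, 0.69 and 0.68 on the log2 scale. Their shares were 1.33, 1.12, 0.891 and 0.883 times those in control. The shares of miR-210-3p and miR-144-3p overlapped between groups, and those of miR-22-3p and miR-185-5p were lower with RUNX1. The megakaryocyte list shares miR-34a-5p, miR-27a-3p, miR-10a-5p and miR-126-3p with the myeloid list and miR-146a-5p and miR-155-5p with the lymphoid list, so these counts are not independent. MiR-16-5p, miR-92a-3p, miR-24-3p, miR-181a-5p and miR-125b-5p are each annotated at 2 loci. How reads that match both were counted is not given in the sources used here, so the counts of these microRNAs are uncertain. The number of loci was not looked up for the other list entries, miR-19b-3p among them. MiR-16-5p, 1 of the 2 erythroid entries that were not altered, had only 10 to 102 counts. The counts of altered entries also depend on the scaling. With library size only, the lymphoid list had 3 up-regulated and 5 down-regulated entries with a median of -0.35, the erythroid list 1 and 4 with -0.31, the myeloid list 3 and 1 with 0.20 and the megakaryocyte list 4 and 2 with 0.26.

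**Figure D5:**
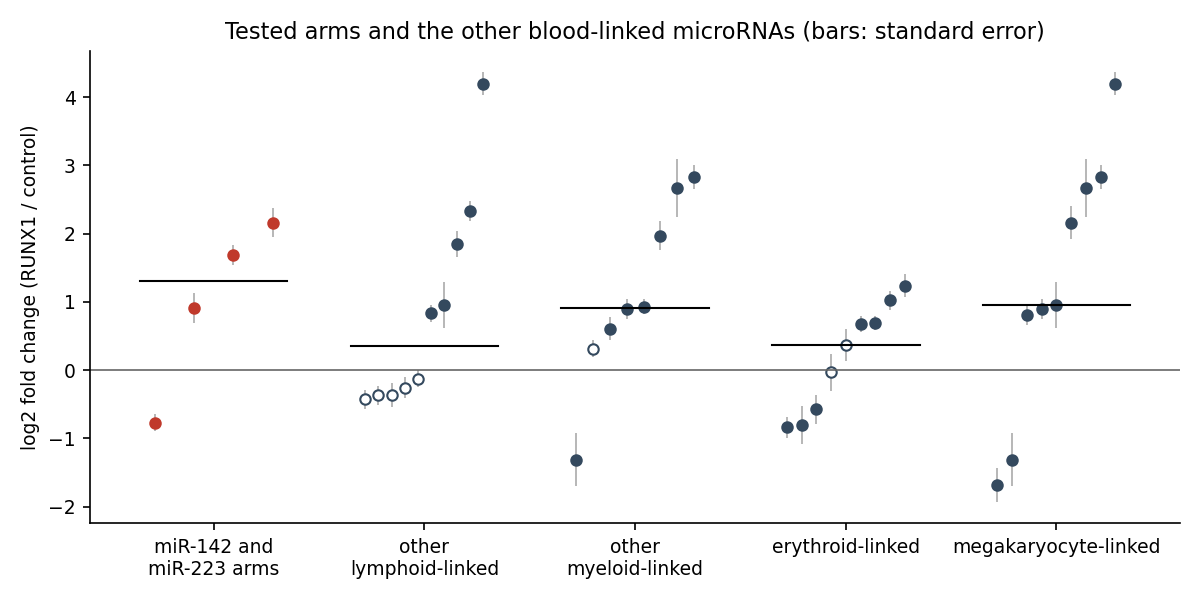
Log2 fold change (RUNX1 against control) with standard errors of the 4 tested miR-142 and miR-223 arms (red) and of the tested entries of 4 lists of blood-linked microRNAs (blue), with a line at each median; filled points were altered and open points were not. The medians of the lists lie from 0.35 to 0.95.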

How the data were processed

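K562 small RNA was sequenced by the authors from TruSeq Small RNA libraries, with CASAVA 1.8.2 per the submitters' processing notes, and the deposited files hold whole-number read counts per annotated small RNA without normalization, 1 file per sample. The same notes name the build hg19. The aligner and the treatment of reads that match several loci are not given in the sources used here. The 5 summary lines of each file held 0 counts and were left out. Groups and replicate numbers were taken from the sample titles. No 2 replicates of a group agreed within sampling noise (chi-square over its degrees of freedom, 9.62 to 451), so none was treated as a library deposited again. This does not show that they are independent samples, for which the titles and the study's methods were followed.

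Counts were analysed in R 4.3.3 with edgeR 4.0.16 (filterByExpr with a minimum count of 10 and a minimum total of 15, TMM, glmQLFit and glmQLFTest, condition as the only term). Adjusted P-values are by Benjamini-Hochberg over all small RNAs tested, and standard errors were taken as the size of the log2 fold change over the square root of the F statistic. Arm ratios were tested in edgeR with arm by sample columns, sample as block and the arm by condition term, and log2 ratios per sample used 0.5 added to each count. Alternatives were DESeq2 1.42.0, limma 3.58.1 on arm ratios, RLE, library size, TMM on microRNAs, other count filters, the adjusted P-value, the replicate number as a block, other denominators for shares, and fits leaving out single replicates. Both fits were first tested on simulated data. With 200 of the small RNAs changed by 1.5 on the log2 scale, the edgeR fit called 100% of them and 2.85% of the unchanged ones among 936 tested. The arm fit called 100% of 60 changed hairpins and 5.81% of the unchanged ones among 146. The changed entries were well counted, went up or down at random and shared 1 relative spread, and no replicate deviated. In the real data 57.6% of the small RNAs were altered and RUNX1 replicate 3 stood apart, so these rates may not hold there.

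The 6 microRNAs and the lists were chosen with earlier results of these data known. Named microRNAs are the 6 members, microRNAs with the seed of a member, the 3 nearest patterns per tested member, the neighbours in the order of levels in control, and the lists; the markers checked, the most abundant microRNA and the hairpins with arms altered in opposite directions are named in addition, the last 2 of these after their values were seen. Counting intervals and floors cover counting error only.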

Additional observations from a re-analysis of the deposited data

How the results depend on the processing

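Of 144 alternative values, 136 kept the direction and side of the threshold, or moved by less than the spread between replicates. The 136 include counts of altered entries, which have no such spread, so this tally does not measure how stable those counts were. The number of altered small RNAs was 761 without the count filter and 386 with at least 10 counts in every sample, against 545. With library size only, miR-223-3p had a log2 fold change of 0.19. TMM on microRNAs altered 339 small RNAs against 545, since it tests microRNAs alone. The ratio of microRNA count shares moved with miR-10a-5p left out, to 1.36 for miR-223-3p, 0.431 for miR-223-5p, 2.34 for miR-142-5p and 3.23 for miR-142-3p, and on all counts of the library to 1.96 for miR-142-5p. Leaving out 1 replicate gave log2 fold changes of 0.80 to 1.24 for miR-223-3p, -0.78 to -0.69 for miR-223-5p, 1.63 to 1.89 for miR-142-5p, 2.04 to 2.46 for miR-142-3p and 2.09 to 3.99 for miR-150-5p, arm ratio changes of 1.42 to 1.96 for miR-223 and 0.32 to 0.57 for miR-142 (called altered at 0.57, without RUNX1 replicate 3), 521 to 612 altered small RNAs and 63 to 79 altered arm ratios. The unadjusted edgeR P-value of the miR-142 arm ratio exceeded 0.05 without control replicate 1 (0.0604) and without RUNX1 replicate 1 (0.0832). Its Benjamini-Hochberg adjusted edgeR P-value was 0.0983 to 0.161 when any single sample other than RUNX1 replicate 3 was left out. The adjusted P-value was also above 0.05 with limma (0.0922), and in edgeR without a count filter (0.0912) and with the replicate number as a block (0.0967). With the replicate number as a block, 546 small RNAs and 68 arm ratios were altered and no call of a member changed. Samples with the same number did not deviate together (correlations from -0.121 to -0.0601), so the numbers were not taken as pairs. At this depth a change of miR-150-3p cannot be shown.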

Other observations

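Besides miR-223, the hairpins with arms altered in opposite directions were miR-331, miR-409, miR-144 and miR-664b, with the 3p arm up-regulated, and miR-411, miR-330 and miR-145, with the 5p arm up-regulated. In log2 fold changes, miR-331-3p had 0.92 and miR-331-5p -0.68, close to the values of the miR-223 arms, and miR-144-3p had 1.02 and miR-144-5p -0.58. MiR-664b had the largest distance between its arms, 4.88 and -2.30, but its 3p arm had only 0.536 CPM in control. MiR-223-3p, with 1314 CPM in control, was the most abundant arm among these hairpins. In control, the 5p arm had more counts in 84 of the 144 hairpins, as in miR-142, and the 3p arm in 59, as in miR-223.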
